A study of Mus musculus with 2 samples.

Results

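Acta2-positive fibroblasts were barcodes of a mouse tumour library that carried collagen transcripts together with the transcript of smooth muscle alpha-actin. A barcode was counted when it held at least 300 genes and under 10% mitochondrial transcripts, when Col1a2, Col3a1 and Dcn made up at least 0.5% of its unique molecular identifiers (UMIs, each counting 1 captured transcript), and when it held at least 3 UMIs of Acta2. Barcodes rich in neutrophil genes (S100a8, S100a9, Csf3r and G0s2 at 2% or more), in macrophage genes (C1qa, C1qb, C1qc and Apoe at 0.3% or more) or with 3 or more UMIs of the mural cell genes Rgs5 and Notch3 were left out. The rule kept 157 barcodes of the 11976 that passed the limits on genes and mitochondrial transcripts, which is 1.31% (exact binomial 95% interval 1.11 to 1.53). The whole matrix held 12309 barcodes. The same rule with fewer than 3 Acta2 UMIs gave 381 Acta2-low fibroblast barcodes, 3.18% (2.87 to 3.51).

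The tumours grew under the skin of wild-type mice from 4T1, an established mouse mammary carcinoma line. The series held 1 library from animals given the agent labelled PCN and 1 from animals given PBS, and both groups carried the same tumour line and genotype. The mouse strain, age and number of animals behind a library are not stated in the labels, and neither is any pooling of tumours. The count matrix was assigned to the PCN library, because all 10835 barcodes listed under that group were in it, against 37 of the 11643 barcodes listed under PBS. Of these 37, 33 were on both lists. Counts of the PBS library were not analysed here, so everything below describes barcodes of 1 library and no effect of PCN was measured.

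Fibroblasts build and anchor the collagen scaffold of connective tissue. In wounds and tumours, mechanical tension and TGF-beta ligands switch some of them to a contractile state in which they make smooth muscle actin, and such cells are called myofibroblasts. Mouse mammary tumours are also known to hold fibroblasts of another kind, which secrete chemokines, acute phase proteins and cytokines and have little Acta2. Other fibroblasts lie in the adventitia around vessels and carry Pi16 and Dpp4.

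The members were chosen by the measured UMI counts of the rule genes, and the genes compared come from the same barcodes, so the ratios below describe the classes and none was tested. Levels are UMIs summed over the barcodes of a class and given as counts per 1000000 UMIs (CPM). Ratios have the exact 95% interval of a ratio of 2 Poisson counts, which covers counting error only. A gene was called higher or lower when it differed at least 2-fold and had at least 50 UMIs over both classes.

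The library held 96873409 UMIs over 33696 genes. Acta2-positive barcodes were deep, with a median of 24210 UMIs (1315 to 75615) and 5229 genes, against 14553 UMIs and 3956 genes in Acta2-low barcodes. Of the 157 Acta2-positive barcodes, 102 (65.0%) reached 20000 UMIs, and none of these 102 was on the cell list that the authors deposited, which held the other 55. Among Acta2-low barcodes 124 (32.5%) reached 20000 UMIs and 257 were on that list. No Acta2-positive barcode and 2 Acta2-low barcodes were also on the list of the PBS library. The part of depth in the differences below was not tested, and values within 1 depth range are given beside the main results.

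**Figure D1:**
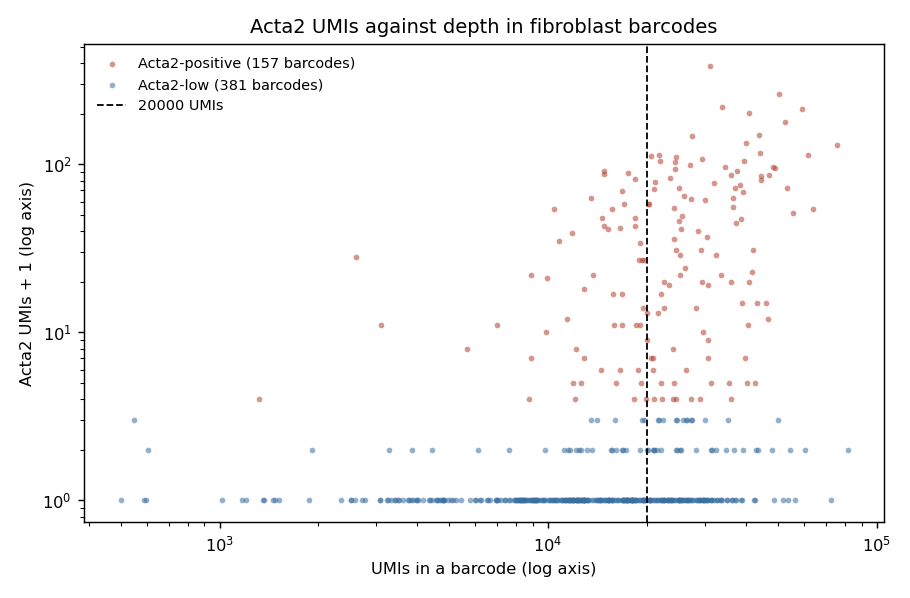
UMIs per barcode (x, log axis) against Acta2 UMIs plus 1 (y, log axis) in 157 Acta2-positive and 381 Acta2-low fibroblast barcodes, with a dashed line at 20000 UMIs. Acta2-positive barcodes lie on both sides of the line, 102 at or right of it and 55 left of it, and the highest held 385 Acta2 UMIs.

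Barcodes close to the limit were few. Exactly 3 Acta2 UMIs were held by 12 barcodes and exactly 4 by 10, just inside the limit, while 19 barcodes with 2 UMIs and 47 with 1 lay just outside and 315 had none. Tagln, an actin-binding protein of contractile cells, was at 81.9 CPM in the barcodes with 3 Acta2 UMIs and at 67.1 CPM in those with 2, so the limit crosses a range and not a gap. The other limits mattered little. Only 5 further barcodes failed the collagen limit alone, 2 the neutrophil limit, 5 the macrophage limit and 5 the mural limit. The share of the 3 collagen rule genes had a median of 1.98% (0.511 to 7.83) in Acta2-positive barcodes and 3.04% (0.508 to 9.41) in Acta2-low ones.

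Of the markers listed for these cells (Acta2, Tagln, Col1a1, Postn, Tnc and Adm), 5 were abundant and Adm was not. Acta2 ranged over single barcodes between 83.5 and 12366 CPM with a median of 1325 CPM, and its summed level was 1773 CPM in Acta2-positive and 13.2 CPM in Acta2-low fibroblasts, as the rule requires. Tagln had a median of 763 CPM over Acta2-positive barcodes, with a middle range of 158 to 2223 CPM, against a median of 0 in Acta2-low ones. Col1a1, the main fibrillar collagen chain, had medians of 11612 and 11175 CPM, and the ranges of Acta2-positive (1498 to 42399 CPM) and Acta2-low barcodes (0 to 51191 CPM) overlapped almost fully. Postn, a matricellular protein of remodelling tissue, had medians of 1236 and 836 CPM. Tnc, a matrix glycoprotein made in wounds and tumours, had medians of 4124 CPM in Acta2-positive and 244 CPM in Acta2-low barcodes. Adm, the vasodilator peptide adrenomedullin, had a median of 0 in Acta2-positive barcodes and of 57.9 CPM in Acta2-low ones, so the data go against it as a marker of the Acta2-positive class.

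**Figure D2:**
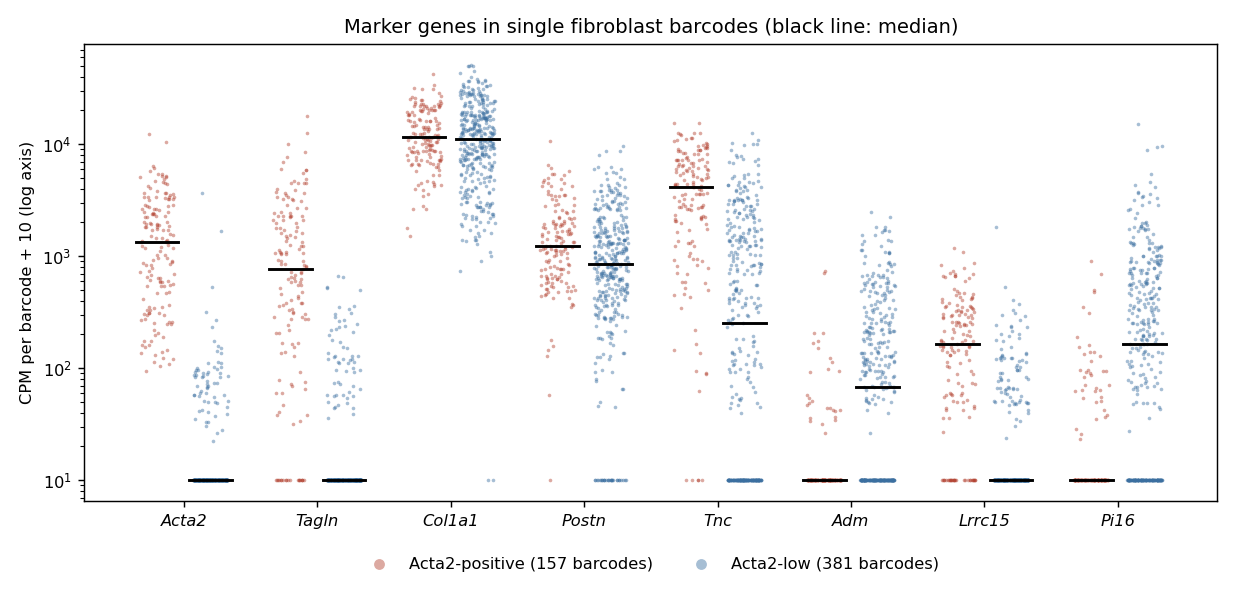
CPM plus 10 (log axis) of the 6 listed markers, Lrrc15 and Pi16 in every barcode, Acta2-positive (157, left of each pair) and Acta2-low (381, right). Black lines are medians; Tagln and Tnc are higher on the left, Col1a1 overlaps, and Adm and Pi16 have medians of 0 on the left.

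To set shares of barcodes side by side at equal depth, each barcode was thinned to 2000 UMIs, which kept 156 Acta2-positive and 366 Acta2-low barcodes. A Tagln UMI was then present in 62.8% (54.7 to 70.4) of Acta2-positive and 4.37% (2.52 to 7.0) of Acta2-low barcodes. Free RNA can put a UMI into any droplet, so the same share was taken in barcodes of other cells, where Tagln reached 0.546% of 1282 neutrophil-gene, 0.563% of 3550 macrophage-gene and 0.157% of 637 keratin-gene barcodes. Before thinning, these 3 kinds of barcode had median depths of 1698, 8267 and 22000 UMIs. Acta2 itself was found after thinning in 82.7% of Acta2-positive barcodes and 3.55% of Acta2-low ones. Both shares follow from the rule, and 5.23% of neutrophil-gene barcodes, on which the rule sets no Acta2 limit, held an Acta2 UMI. Tnc UMIs were in 90.4% and 49.7% of the 2 fibroblast classes and in 20.4% of keratin-gene barcodes.

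Of 23 contractile genes besides Acta2, 21 had enough UMIs, and 14 of these were called higher in Acta2-positive fibroblasts, 7 were not called and none was lower, with a median log2 ratio of 1.21. Over all 10421 genes compared, 3.76% were called higher and 7.14% lower, with a median log2 ratio of 0.03. The list was chosen with Acta2 in view and Acta2 cut the classes, so nothing is read from the difference. The summed level of the list, Acta2 included, was 9438 CPM in Acta2-positive and 2573 CPM in Acta2-low fibroblasts.

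The members differed widely in how closely they went with Acta2. Tagln reached 1547 CPM in Acta2-positive against 33.0 CPM in Acta2-low fibroblasts, a ratio of 46.9 (40.9 to 54.0), and was found in 138 and 62 barcodes. Myl9, the regulatory light chain of smooth muscle myosin, was at 141 and 3.73 CPM, 37.8 times as high (25.2 to 59.5), in 117 and 23 barcodes. Both genes were therefore found in most Acta2-positive barcodes and in a minority of the others. Tpm2, a tropomyosin that runs along actin filaments, was at 403 and 26.1 CPM with a ratio of 15.4 (13.1 to 18.2), in 144 and 84 barcodes. Tpm1, its close relative, was at 823 and 175 CPM with a ratio of 4.71 (4.40 to 5.04). Tropomyosins are expressed in most cell types, and Tpm1 was found in 155 Acta2-positive and 273 Acta2-low barcodes. Cald1, a calmodulin-binding regulator of actomyosin, was present in all 157 Acta2-positive and in 351 Acta2-low barcodes at 1284 and 650 CPM, 1.98 times as high (1.90 to 2.06) and just short of the 2-fold limit.

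Genes of fully differentiated smooth muscle came from fewer barcodes. Cnn1, the calponin of smooth muscle, had 194 UMIs in 42 Acta2-positive barcodes and 1 UMI in 1 Acta2-low barcode (ratio 298, interval 52.9 to 11840.1), and a single barcode held 39.2% of its UMIs. Actg2, the enteric smooth muscle actin, had 181 UMIs in 35 Acta2-positive barcodes and 1 UMI in 1 Acta2-low barcode. Actg2 and Acta2 are near-identical in their coding sequence, so some reads could be shared between them. Myh11, the smooth muscle myosin heavy chain, had 23 UMIs in 11 Acta2-positive barcodes and none in Acta2-low ones, at least 11.8-fold higher against a limit of 3 UMIs over the class. These genes were thus detected in a minority of the class, while Tagln, Tpm2 and Myl9 were detected in most of it. Des, the muscle intermediate filament, had 60 UMIs in 34 Acta2-positive barcodes and 12 UMIs in 10 Acta2-low ones.

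General actin crosslinkers and adhesion genes differed less. Flna, which crosslinks actin filaments, was 2.20 times as high (2.01 to 2.41) at 279 and 127 CPM. Actn1 was 1.76 times and Vcl 1.38 times as high, both of which anchor actin at focal adhesions. Tns1, also an adhesion protein, was at 36.8 CPM in Acta2-positive and 61.7 CPM in Acta2-low fibroblasts, 0.596 times as high. The direction was thus not shared by every actin gene. Below 20000 UMIs, where depth was closer, 15 of 18 compared genes of the list were called higher and none lower, and Tagln stood at 1736 and 18.4 CPM.

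The 6 fibroblast barcodes left out for Rgs5 and Notch3, which mark pericytes and smooth muscle, had more of these genes than the Acta2-positive class. Acta2-positive barcodes held 1773 CPM of Acta2, 5.50 CPM of Myh11 and 14.3 CPM of Des, against 6539, 361 and 293 CPM in the 6 mural barcodes. Rgs5 itself had 6 UMIs in all Acta2-positive barcodes together, and Higd1b, another pericyte gene, had none. Lrrc15, a membrane protein of tumour myofibroblasts, ran the other way, at 191 CPM in Acta2-positive and 17.2 CPM in mural barcodes. With 6 barcodes the mural values are those of these droplets only.

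The stretches around the transcription starts of Acta2 and of 2 contractile genes called higher are shown as RefSeq gives them on the mouse build GRCm38.p6, each running from 250 bases before to 50 bases after the start, 5′ to 3′ on the gene's own strand. Capitals mark a CArG box, the element bound by serum response factor, of the form CC, 6 letters that are A or T, and GG. Acta2 lies on the minus strand at chr19:34255324-34255623, Myl9 on the plus strand at chr2:156775214-156775513 and Cnn1 on the plus strand at chr9:22099003-22099302.
Acta2: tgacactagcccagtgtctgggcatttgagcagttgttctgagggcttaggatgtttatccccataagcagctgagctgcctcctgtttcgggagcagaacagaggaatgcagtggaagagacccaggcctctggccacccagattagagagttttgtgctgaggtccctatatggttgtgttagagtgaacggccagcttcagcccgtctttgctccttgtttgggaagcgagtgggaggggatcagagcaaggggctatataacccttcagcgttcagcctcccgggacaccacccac
Myl9: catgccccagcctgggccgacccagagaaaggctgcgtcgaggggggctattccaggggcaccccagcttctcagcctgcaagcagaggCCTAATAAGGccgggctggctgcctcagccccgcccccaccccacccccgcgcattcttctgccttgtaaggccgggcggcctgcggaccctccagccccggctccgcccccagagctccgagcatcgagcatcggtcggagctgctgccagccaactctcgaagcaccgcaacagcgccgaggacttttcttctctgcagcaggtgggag
Cnn1: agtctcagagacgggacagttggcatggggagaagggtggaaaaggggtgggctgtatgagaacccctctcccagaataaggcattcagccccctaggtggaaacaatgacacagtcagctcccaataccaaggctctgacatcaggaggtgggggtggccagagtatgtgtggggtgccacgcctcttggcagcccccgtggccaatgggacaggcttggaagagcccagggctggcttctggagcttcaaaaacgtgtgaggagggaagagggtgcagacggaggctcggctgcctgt
The Myl9 window holds 1 exact CArG box, CCTAATAAGG, starting 161 bases before the start, and the windows of Acta2 and Cnn1 hold no exact match. On either strand an exact box was found in 535 of 32851 windows (1.63%), and for 3 of the 21 contractile genes with a window, which were Cnn2, Myl9 and Vcl. A match is a match of letters only, and the lack of one says nothing of boxes with a changed letter or outside the window.

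Within the 2 fibroblast classes, genes followed Acta2 in graded steps. Barcodes were split by Acta2 UMIs into bands of 0 (315 barcodes), 1 to 2 (66), 3 to 9 (40), 10 to 29 (40) and 30 or more (77). Tagln was at 27.9, 49.6, 146, 589 and 2436 CPM across these bands in that order. Tpm2 was at 22.8, 37.1, 92.8, 229 and 584 CPM. Both were higher in each band than in the one before it. Tnc was at 1215, 1948, 3284, 4143 and 5517 CPM. Inhba, the subunit of activin A, was at 65.1, 118, 251, 456 and 623 CPM. The opposite order held for Pi16, a marker of adventitial fibroblasts, at 554, 196, 69.6, 56.0 and 16.4 CPM, and for C3, the complement component, at 763, 458, 222, 113 and 38.3 CPM. Col1a1 stayed between 11187 and 14253 CPM in all 5 bands. Median depth moved with the bands, at 12990, 21001, 20784, 21748.5 and 27178 UMIs, and its part in these steps was not tested. The 3 bands between 1 and 29 Acta2 UMIs had median depths close to each other, but their single barcodes ran between 548 and 81493 UMIs. Across these 3 bands Tagln, Tnc, Inhba, Pi16 and C3 kept the order given, with depth not matched between barcodes.

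**Figure D3:**
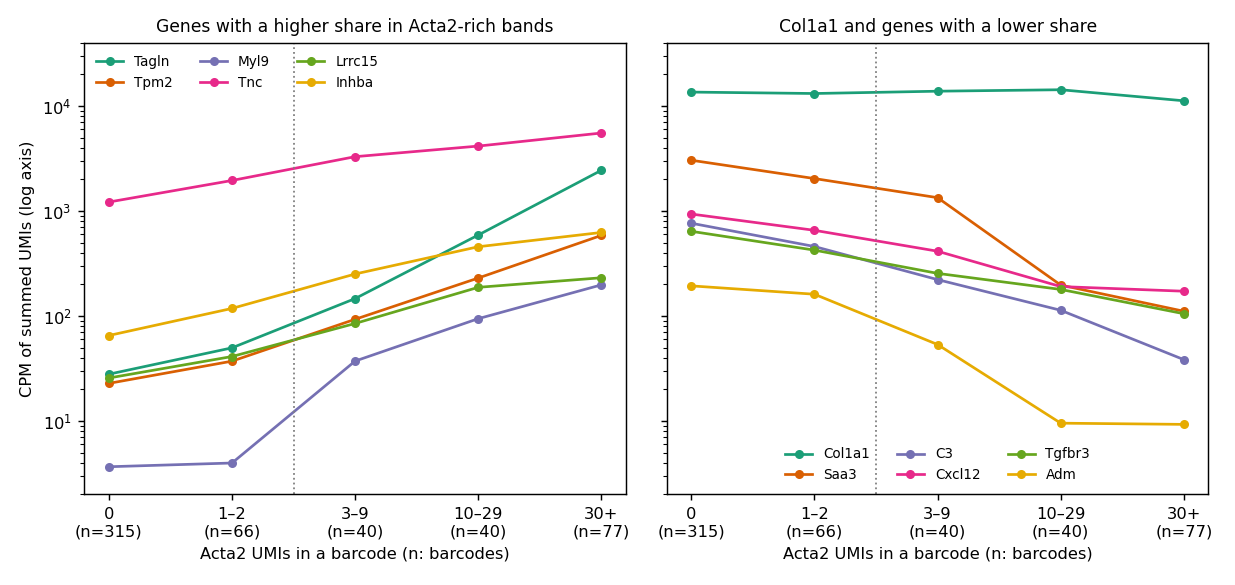
CPM of summed UMIs (log axis) in 5 bands of Acta2 UMIs per barcode (315, 66, 40, 40 and 77 barcodes), the dotted line marking the limit of 3 UMIs. Tagln runs between 27.9 and 2436 CPM on the left, and on the right Col1a1 stays between 11187 and 14253 CPM while Adm runs between 193 and 9.27 CPM.

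Matrix genes were abundant in both classes and split in direction between them. Of 27 matrix genes besides the 3 rule genes, all with enough UMIs, 4 were called higher in Acta2-positive fibroblasts, 4 lower and 19 neither, with a median log2 ratio of 0.21. Over all genes compared the shares were 3.76% higher and 7.14% lower. The list made up 66597 CPM in Acta2-positive and 74672 CPM in Acta2-low fibroblasts. The most abundant members were near equal. Col1a1 was at 12420.2 and 13441 CPM, 0.924 times as high (0.914 to 0.934), and Sparc, a collagen-binding glycoprotein, at 7216 and 8341 CPM, 0.865 times as high (0.853 to 0.877). Of the genes used by the rule, Col1a2 was at 8824 and 10399 CPM, Col3a1 at 11800.5 and 20131 CPM, and Dcn, a small proteoglycan, at 635 and 2516 CPM. The last 3 values belong to genes that chose the barcodes and are given as a description.

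The 4 higher matrix genes were Lrrc15, Tnc, Col11a1 and Col8a1. Lrrc15 was at 191 CPM in Acta2-positive and 29.2 CPM in Acta2-low fibroblasts, 6.53 times as high (5.56 to 7.69), in 127 and 85 barcodes. Tnc was at 4746 and 1387 CPM, 3.42 times as high (3.34 to 3.51), in 152 and 238 barcodes. Below 20000 UMIs Tnc stood at 4778 and 999 CPM, and above that depth at 4739 and 1671 CPM, so the direction held in both ranges. Col11a1, a minor fibrillar collagen, was 2.90 times as high (2.44 to 3.47) but came from 74 Acta2-positive barcodes, and Col8a1, a short-chain collagen, was 2.11 times as high (1.97 to 2.26). Postn was found in 156 of 157 Acta2-positive and 352 of 381 Acta2-low barcodes, at 1619 and 1333 CPM, 1.21 times as high (1.18 to 1.25). Fap, the fibroblast activation protease, was at 88.7 and 84.9 CPM with an interval of the ratio that includes equality (0.913 to 1.19).

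The 4 lower matrix genes were Eln, Lum, Col4a1 and Col4a2. Eln, which encodes elastin, was at 42.1 CPM in Acta2-positive and 177 CPM in Acta2-low fibroblasts, 0.237 times as high (0.201 to 0.278), in 41 and 218 barcodes. Lum, a proteoglycan that spaces collagen fibrils, was at 172 and 489 CPM, 0.352 times as high. Col4a1 and Col4a2, the chains of basement membrane collagen, were 0.361 and 0.419 times as high. Thbs1, Thbs2, Cthrc1 and Col12a1, all matrix proteins of remodelling tissue, lay between 1.56 and 1.82 times and stayed under the 2-fold limit.

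Enzymes that cut and crosslink the matrix had no common direction, with 3 of 20 called higher, 3 lower and a median log2 ratio of -0.04. Across all genes compared 3.76% were called higher and 7.14% lower. Timp1, an inhibitor of matrix metalloproteinases, was at 2347 CPM in Acta2-positive and 1037 CPM in Acta2-low fibroblasts, 2.26 times as high (2.19 to 2.33), in 156 and 331 barcodes. Mmp3, the protease stromelysin, was at 226 and 959 CPM, 0.236 times as high (0.220 to 0.252), and was found in 65 and 253 barcodes. Adamts5, an aggrecan-cutting protease, and Mmp2, a gelatinase, were also called lower, at 0.260 and 0.444 times. Mmp13, a collagenase, was 12.4 times as high but came from 15 Acta2-positive barcodes, 1 of which held 52.9% of its UMIs. Mmp10 came from 13 Acta2-positive barcodes. Lox, the crosslinking lysyl oxidase, was at 910 and 1339 CPM and within 2-fold. Below 20000 UMIs 1 member was called higher and 4 lower.

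Hypoxia genes differed little between the classes, as did most genes compared, and Adm had the largest difference of the list. Hypoxia genes are switched on by the HIF factors when oxygen is short, and some of them encode glucose transport and glycolysis. Of 29 members 27 had enough UMIs, of which Slc16a3 was called higher and Adm lower, with a median log2 ratio of 0.13. Over all 10421 genes compared 3.76% were called higher and 7.14% lower, so these counts are not read as a trait of the list. The list summed to 4205 CPM in Acta2-positive and 3533 CPM in Acta2-low fibroblasts, against 7007 CPM in neutrophil-gene barcodes.

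Adm had 77 UMIs in 28 Acta2-positive barcodes and 1193 UMIs in 213 Acta2-low ones, or 18.4 and 186 CPM, 0.0992 times as high (0.0778 to 0.125). Of the 77 UMIs 24.7% came from 1 barcode and 59.7% from 5 barcodes. After thinning, an Adm UMI was found in 1.92% (0.398 to 5.52) of Acta2-positive barcodes, which is not above the 1.73% of keratin-gene barcodes beyond counting error, and in 24.0% (19.8 to 28.8) of Acta2-low barcodes. Across the Acta2 bands Adm was at 193, 161, 53.4, 9.51 and 9.27 CPM. Its difference was of the same direction in both depth ranges, at 22.9 and 227 CPM below 20000 UMIs and at 17.4 and 155 CPM above. The stretch around its start, on the plus strand of GRCm38.p6 at chr7:110627407-110627706 in RefSeq, is shown because Adm is the listed marker that went the other way.
Adm: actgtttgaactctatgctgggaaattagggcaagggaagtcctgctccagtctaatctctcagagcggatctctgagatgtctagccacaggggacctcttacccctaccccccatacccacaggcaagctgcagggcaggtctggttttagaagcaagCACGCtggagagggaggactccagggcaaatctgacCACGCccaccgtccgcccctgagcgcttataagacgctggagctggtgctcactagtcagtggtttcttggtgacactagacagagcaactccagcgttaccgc
Capitals mark the core of the hypoxia response element, ACGTG or GCGTG on either strand. It was found as CACGC, the reverse complement of GCGTG, starting 90 and 54 bases before the start. At least 1 of these 2 short motifs is in 43.8% of all windows, so a match is common.

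Of the other hypoxia genes 1 was called. Slc16a3, which exports lactate, was at 72.9 CPM in Acta2-positive and 35.3 CPM in Acta2-low fibroblasts, 2.07 times as high (1.73 to 2.46), in 80 and 105 barcodes. It was at 444 CPM in neutrophil-gene barcodes, and its call was lost below 20000 UMIs (61.0 and 32.8 CPM). The most abundant members were the glycolytic enzyme Pgam1 (605 and 347 CPM, 1.74 times), the cytokine Mif (464 and 326 CPM, 1.42 times), Ldha, which makes lactate (411 and 301 CPM, 1.37 times), and the transcription factor Bhlhe40 (326 and 253 CPM, 1.29 times). All 4 were higher in Acta2-positive fibroblasts by less than 2-fold. Vegfa, the vascular growth factor, was at 204 and 135 CPM. Ndrg1, a further HIF target, was at 120.3 and 230.2 CPM, 0.522 times as high (0.471 to 0.579), just inside the limit. Among the glycolytic genes no call was made in either direction.

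Of 22 chemokines 20 had enough UMIs, of which 5 were called lower in Acta2-positive fibroblasts and 1 higher, with a median log2 ratio of -0.48. Calls over all genes compared were 7.14% lower and 3.76% higher. The list summed to 8016 CPM in Acta2-positive and 10566 CPM in Acta2-low fibroblasts, and to 55776 CPM in neutrophil-gene and 16544 CPM in macrophage-gene barcodes, whose free RNA was not subtracted. Below 20000 UMIs 8 of 18 were called lower and 2 higher.

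Cxcl14, a chemokine common in fibroblasts, led the list at 2802 CPM in Acta2-positive and 2149 CPM in Acta2-low fibroblasts, 1.30 times as high (1.27 to 1.34), in 135 and 263 barcodes. Below 20000 UMIs its order turned, at 1659 and 2313 CPM. Ccl2, which draws monocytes, was at 1325 and 1833 CPM, 0.723 times as high (0.70 to 0.746), in 128 and 348 barcodes. Ccl7, which also draws monocytes, was at 924 and 1689.5 CPM, 0.547 times as high. Cxcl1, which draws neutrophils, was at 1054 and 1474 CPM, 0.715 times as high. These 3 were thus lower in the Acta2-positive class by less than 2-fold. Ccl2 was also at 1223 CPM in macrophage-gene barcodes, and its band values (1795, 1958, 2041, 1646 and 937 CPM) were lowest in the band with most Acta2.

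The chemokines called lower were Cxcl13, Cxcl12, Ccl8, Cxcl5 and Ccl11. Cxcl12, the ligand of Cxcr4 and a main stromal chemokine, was at 226 CPM in Acta2-positive and 868 CPM in Acta2-low fibroblasts, 0.260 times as high (0.243 to 0.279), in 114 and 326 barcodes. After thinning its UMIs were in 26.3% and 56.3% of barcodes and in under 1% of neutrophil-gene, macrophage-gene and keratin-gene barcodes. Both fibroblast shares thus lay above those of the other barcodes. Cxcl13, the B cell attractant, had 13 UMIs in 3 Acta2-positive barcodes and 607 UMIs in 51 Acta2-low ones, 0.0329 times as high (0.0174 to 0.0567). Cxcl5, a neutrophil attractant, was at 197 and 526 CPM, 0.373 times as high, and 1 barcode held 34.9% of its UMIs in the Acta2-positive class. Ccl8 and Ccl11 were 0.368 and 0.453 times as high.

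Cxcl9, the interferon-induced T cell attractant, was called higher at 138 and 56.0 CPM, 2.47 times as high (2.16 to 2.83). It came from 15 Acta2-positive and 19 Acta2-low barcodes, and 5 barcodes held 83.9% of the UMIs in the Acta2-positive class. Below 20000 UMIs it was at 553 CPM and above that depth at 42.4 CPM in Acta2-positive barcodes, so its level is that of a few droplets.

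Of 20 genes of the TGF-beta pathway, all with enough UMIs, 4 were called higher, 2 lower and 14 neither, with a median log2 ratio of -0.11. The number called lower was 4 below 20000 UMIs, with 5 called higher, and 4 with a minimum of 5 Acta2 UMIs, with 4 called higher. Shares over all genes compared, in the main comparison, were 3.76% higher and 7.14% lower. Inhba was at 509 CPM in Acta2-positive and 77.5 CPM in Acta2-low fibroblasts, 6.57 times as high (5.95 to 7.25), in 127 and 82 barcodes. Tgfb2 was at 550 and 198 CPM, 2.77 times as high (2.59 to 2.97), in 140 and 191 barcodes. Tgfb1 and Tgfb3 were 2.54 (2.13 to 3.02) and 2.38 (1.95 to 2.92) times as high. The 4 genes called higher encode ligands or, for Inhba, a subunit of one. Of the receptors, Tgfbr3, the co-receptor betaglycan, was at 152 and 588 CPM, 0.259 times as high (0.238 to 0.282), Tgfbr2 was 0.508 times and Tgfbr1 1.05 times as high, and Acvrl1 was called lower at 0.389 times. Target genes on this list stayed within 2-fold, such as Ccn2 at 1.58 times and Smad7 at 0.956 times. Target genes outside the list were not considered in this count. After thinning, Inhba UMIs were in 42.9% of Acta2-positive, 7.38% of Acta2-low and 16.5% of keratin-gene barcodes.

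Cytokines and growth factors were called lower for 6 of 19 genes and higher for 2, with a median log2 ratio of -0.38. The shares over all genes compared were 7.14% lower and 3.76% higher. Saa3, an acute phase protein, was at 383 CPM in Acta2-positive and 2801 CPM in Acta2-low fibroblasts, 0.137 times as high (0.13 to 0.144), in 77 and 230 barcodes. After thinning its UMIs were in 17.9% of Acta2-positive barcodes, which is no more than in neutrophil-gene ones (18.0%), and in 43.2% of Acta2-low ones. In the Acta2-positive class 5 barcodes held 59.1% of its UMIs. Csf3, the granulocyte growth factor G-CSF, had 4 UMIs in 4 Acta2-positive barcodes and 411 UMIs in 63 Acta2-low ones. Both genes were thus higher in Acta2-low fibroblasts. Il6, Il33, Igf1 and Fgf7, all secreted by fibroblasts, were also called lower, at 0.445, 0.385, 0.415 and 0.472 times. Hbegf, an EGF receptor ligand, was at 193 and 55.1 CPM, 3.50 times as high (3.09 to 3.98), in 101 and 105 barcodes, and Il11, a cytokine of the IL-6 family, at 53.6 and 18.4 CPM, 2.92 times as high (2.32 to 3.68). Csf1, the macrophage growth factor, was 0.521 times as high and not called.

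Genes of adventitial fibroblasts were lower almost throughout, with 13 of 14 called lower and none higher, and a median log2 ratio of -2.11. Lower calls made up 7.14% of all genes compared. Pi16, a secreted peptidase inhibitor, was at 36.3 CPM in Acta2-positive and 470 CPM in Acta2-low fibroblasts, 0.0774 times as high (0.0653 to 0.0911), in 40 and 244 barcodes. Its thinned share in Acta2-positive barcodes, 8.97%, did not exceed that in neutrophil-gene barcodes (9.05%), against 1.24% in macrophage-gene and 0% in keratin-gene ones. In the Acta2-positive class 5 barcodes held 48.7% of its UMIs. Clec3b, a plasminogen-binding lectin, was at 48.8 and 389 CPM, 0.125 times as high (0.108 to 0.145), in 24 and 279 barcodes. C3 was at 93.0 and 691 CPM, 0.135 times as high (0.121 to 0.149). Mfap5, a microfibril protein, was the exception at 1311 and 1324 CPM, 0.990 times as high (0.957 to 1.02). Within the ranges below and above 20000 UMIs Pi16 stood at 40.6 and 751 CPM and at 35.3 and 264 CPM, so the direction was the same in both.

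General fibroblast genes were shared by the classes, with 1 of 11 called lower and none higher. Genes at large were called lower for 7.14% and higher for 3.76%, so this count is not read as a trait of the list. Pdgfra, a PDGF receptor of fibroblasts, was at 122 CPM in Acta2-positive and 336 CPM in Acta2-low barcodes, 0.364 times as high (0.330 to 0.401), in 126 and 348 barcodes. Pdgfrb, the receptor shared with mural cells, was at 111 and 84.5 CPM, 1.32 times as high (1.16 to 1.5). Thy1, Twist1, Twist2 and Vim lay between 1.22 and 1.55 times. Of 6 pericyte and smooth muscle genes with enough UMIs, Des and Cspg4 were called higher, Vtn, Kcnj8 and Abcc9 lower, and the summed level was 75.3 and 102 CPM.

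**Figure D4:**
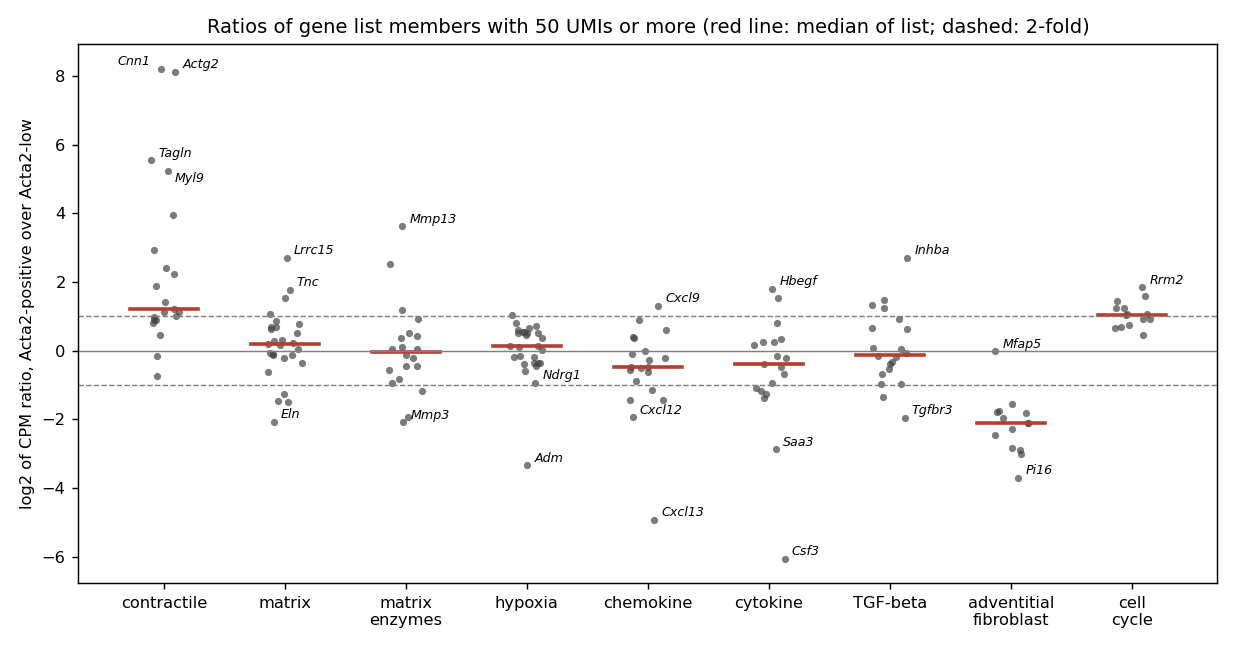
Log2 of the CPM ratio, Acta2-positive over Acta2-low, for each list gene with at least 50 UMIs over both classes, leaving out the genes of the rule; red lines are list medians and dashed lines mark 2-fold. The contractile list has a median of 1.21 and the adventitial one of -2.11, while the hypoxia list sits near 0 with Adm far below it.

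Genes of other cells were low in the class. Their sums in Acta2-positive and Acta2-low barcodes were 405 and 470 CPM for 10 macrophage genes (14976 CPM in macrophage-gene barcodes), 138 and 222 CPM for 10 neutrophil genes (21326 CPM in neutrophil-gene barcodes) and 122 and 316 CPM for tumour epithelial genes (7787 CPM in keratin-gene barcodes). The rule left out barcodes rich in neutrophil or macrophage genes, so low sums of these lists follow in part from it. Keratin-gene barcodes were chosen by Epcam, Krt8 and Krt18, which are on the tumour epithelial list. Their high sum of that list is therefore built in. Over single barcodes the macrophage sum ran between 0 and 5130.2 CPM in Acta2-positive and between 0 and 11589 CPM in Acta2-low ones, so the classes overlapped. Endothelial genes summed to 13.6 and 93.3 CPM, skeletal muscle genes to 5.26 and 25.04 CPM and lymphocyte genes to 31.3 and 30.8 CPM. For comparison, 7.14% of all genes compared with Acta2-low fibroblasts were called lower. Among genes with enough UMIs, 7 of 8 tumour epithelial, 5 of 5 endothelial, 1 of 7 neutrophil and 0 of 9 macrophage genes were called lower in Acta2-positive fibroblasts, and none was called higher. These calls rested on few Acta2-low barcodes: below 20000 UMIs endothelial genes summed to 8.89 and 15.8 CPM. Cldn4 turned to the higher side there, while Flt1 and Emcn had too few counts to read a direction. Without barcodes that held 3 or more UMIs of Epcam, Krt8 and Krt18, the direction of Epcam, Cldn4 and Wfdc2 turned. After thinning Emcn and Cdh5 had too few counts to read a direction. The keratin Krt5, the B cell genes Cd79a and Cd79b and the muscle genes Myh4, Ckm and Tnnc2 had no UMI in the class. At least 3 UMIs of Ptprc, Tyrobp and Fcer1g, which mark leukocytes, were held by 39 of 157 Acta2-positive and 57 of 381 Acta2-low barcodes, and at least 3 UMIs of Epcam, Krt8 and Krt18 by 5 and 15. Without the leukocyte-marked barcodes 13 of 20 contractile genes were called higher and none lower.

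Proliferation genes were higher, and they moved with depth. Of 14 cell cycle genes 8 were called higher and none lower, with a median log2 ratio of 1.06. Among all genes compared 3.76% were called higher and 7.14% lower. Rrm2, a subunit of the enzyme that makes deoxynucleotides, was at 83.4 CPM in Acta2-positive and 23.2 CPM in Acta2-low fibroblasts, 3.60 times as high (2.96 to 4.39), in 65 and 47 barcodes. Ccnb1, the mitotic cyclin, was 3.02 times (2.39 to 3.84) and its kinase Cdk1 2.70 times as high. Top2a was at 105 and 49.9 CPM, in 63 and 51 barcodes. At least 3 UMIs of Mki67 and Top2a were held by 49 Acta2-positive and 29 Acta2-low barcodes. The summed level of the list moved with depth in both classes, at 1992 and 1017 CPM below 20000 UMIs and at 3004 and 1995 CPM above, and the part of depth in the difference was not tested. Of 15 genes of the interferon response and MHC class I, Isg15 was called higher and none lower, and this call was lost with a minimum of 5 Acta2 UMIs, with Acta2 at 0.05% of UMIs or more and after thinning.

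Outside the lists, genes were taken by their ratio alone. Stra6, the receptor for retinol-binding protein, was at 131 CPM in Acta2-positive and 12.3 CPM in Acta2-low fibroblasts, 10.6 times as high (8.38 to 13.6), in 87 and 27 barcodes. Grem1, a secreted BMP antagonist, was 19.5 times as high (11.1 to 37.4), in 31 and 7 barcodes. In the Acta2-positive class 1 barcode held 32.7% and 5 barcodes held 55.2% of its UMIs. Its level there was 117 CPM below 20000 UMIs and 21.5 CPM above. Podnl1, a small leucine-rich proteoglycan, had 46 UMIs spread over 36 Acta2-positive barcodes and 5 UMIs in 4 Acta2-low ones. It was at 11.0 CPM in Acta2-positive fibroblasts and 14.8 CPM in keratin-gene barcodes. Of these genes Stra6 was the most widely detected. Kcnq3, Stmn4 and Cdh6, which are known mainly as a potassium channel, a microtubule regulator and a cadherin, were 41.0, 18.8 and 14.5 times as high in 25, 19 and 17 Acta2-positive barcodes. For these 3 genes 5 barcodes held 55.0%, 63.3% and 61.7% of the UMIs in the class. Among the genes with the lowest ratios, Abca8a, a lipid transporter, had 6 UMIs in 6 Acta2-positive barcodes and 261 in 101 Acta2-low ones. Nos2, the inducible nitric oxide synthase, had 1 UMI against 86 UMIs in 24 barcodes. Tek, an endothelial receptor, had 2 UMIs against 62 UMIs in 36 barcodes. Myoc, Car3 and Mup5 had no UMI in Acta2-positive barcodes, but a single Acta2-low barcode held 51.4%, 94.8% and 92.2% of their UMIs.

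Set against all 11819 other barcodes, which include the 381 Acta2-low fibroblasts, 3522 barcodes rich in neutrophil genes and 3872 rich in macrophage genes, the class had high matrix genes. Matrix genes were called higher for 24 of 27 members and lower for none, where 13.6% of the 15542 genes compared were called higher and 23.5% lower. Contractile genes were called higher for 20 of 22 and lower for none. The rule chose the class by collagen genes and Acta2. High counts in both lists follow in part from this, and nothing is read from them. Col1a1 was at 12420.2 CPM in Acta2-positive fibroblasts and 1050.0 CPM in the other barcodes, 11.8 times as high, and Tagln at 1547 and 17.1 CPM, 90.6 times as high. Of 29 hypoxia genes 2 were called higher and 7 lower, the share called lower being near that of all genes compared, and Adm was 0.92 times as high as in the other barcodes. Of 21 chemokines 6 were called higher and 10 lower, Cxcl14 being at 2802 and 273 CPM. The Acta2-low fibroblasts held 86419 of the 96404 Col1a1 UMIs and 1193 of the 1837 Adm UMIs of the other barcodes, so these values set the class against a mixture in which much of both came from fibroblasts.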

How the data were processed

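Droplet libraries were made with 10x v3 chemistry, per the labels' protocols. Values were raw UMI counts deposited by the authors, and the matrix header names Cell Ranger 8.0.1. The submitters' processing notes name that tool and STAR. The genome build behind these counts was not given in the sources used here. All 288 genes of 18 lists were found by symbol, and where a symbol stood for more than 1 ID the first was used.

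Barcodes were classed by the rule in the text, counts were summed per class, and ratios were formed in pandas 2.3.3 and scipy 1.17.1 under Python 3.11.15. The 18 lists and the members were chosen with earlier results of these data known. A sum of 0 was set to 3 counts over the class. In thinning to 2000 UMIs, shallower barcodes were left out: 1 Acta2-positive, 15 Acta2-low, 2240 neutrophil-gene, 322 macrophage-gene and 49 keratin-gene ones. These last 3 kinds had neutrophil genes at 2% or more, macrophage genes at 0.3% or more, or keratin genes at 0.1% or more of UMIs. No doublet caller was run, no upper UMI limit was set and free RNA was not subtracted. The ratio step was tested on simulated data. With 1 library per group no test, p-value or standard error was formed. Intervals are at 95% and cover counting error only.

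Genes named were the 6 markers, in the contractile, matrix, hypoxia and chemokine lists the 4 of highest level and the 4 of largest ratio, up to 3 by ratio in every other list, and the 10 highest and 10 lowest ratios outside the lists. Other list members named with a value, and Spp1 and Gzmc, were chosen after their values were seen. Some genes that the rule names are not reported here. Antisense or overlapping genes were not separated.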

Additional observations from a re-analysis of the deposited data

How the results depend on the processing

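The results were recomputed in 10 ways listed with the design and 2 chosen after seeing the data, which set barcodes with 10 or more Acta2 UMIs against those under 3 and left out barcodes rich in endothelial genes. No paired analysis was possible because each group had 1 library. The number of Acta2-positive barcodes was 55 with only the authors' listed cells, and 55 with only barcodes under 20000 UMIs. Both settings kept the same Acta2-positive and Acta2-low barcodes, so comparisons of these classes are identical under them and not separate checks. Against Acta2-low fibroblasts, 594 genes (5.7%) were higher when barcodes were averaged and 170 after thinning, while 316 were lower after thinning and 1159 with a minimum of 20 UMIs. Against all other barcodes, 3390 genes (23.7%) were higher with listed cells, 3407 (23.8%) under 20000 UMIs, 856 (6.79%) without leukocyte-marked barcodes and 3523 (22.7%) with averaged barcodes. After thinning 21% were higher and 2115 genes lower. The number of hypoxia genes called lower was 2 with listed cells, under 20000 UMIs, with 5 or 10 Acta2 UMIs or more, with Acta2 at 0.05% of UMIs, and after thinning. The number of chemokines called lower was 8 with listed cells, under 20000 UMIs and with Acta2 at 0.05%. The counts of contractile and TGF-beta genes called higher, of matrix genes called either way and of adventitial genes called lower stayed within 1.5 times in every case. The number of TGF-beta genes called lower was 2, but 4 with listed cells, under 20000 UMIs, with 5 or 10 Acta2 UMIs or more and with Acta2 at 0.05%. The cause of these shifts was not tested, apart from the fewer genes with enough UMIs after thinning and the more under a lower minimum. Of 64 named genes past 2-fold, 53 were still past it with listed cells and 49 after thinning. Log2 ratios changed sign for few genes, some only because a sum of 0 is set to 3 counts. Without keratin-marked barcodes Epcam was at 0.18, Cldn4 at 0.92 and Wfdc2 at 0.0714. With listed cells and under 20000 UMIs Cldn4 was at 0.65, Flt1 at 0.37 and Emcn at 1.37. Car3 (1.37) and Mup5 (1.05) had no UMI in Acta2-positive barcodes, so their values rest on the 3 counts and show no turn. After thinning Emcn was at 0.49, Cdh5 at 0.82 and Acta1 at 0.00791, and without endothelial-rich barcodes Cdh5 was at 0.0659. Chrm3 (1.23), Apoc1 (0.00791), Car3 (0.82) and Mup5 (0.23) had no UMI in thinned Acta2-positive barcodes. Their thinned values rest on the 3 counts as well and show no turn. Thinned Cdh5 has the same value as Car3 and thinned Acta1 the same as Apoc1, so no turn is read from them. With listed cells and under 20000 UMIs Emcn also has the value of Car3. No turn is read from Emcn in any of these settings, nor from Flt1, which had few counts. The genes whose ratios changed sign are marker genes of other cells or genes of few barcodes. Thinning to 2000 UMIs leaves few counts of a low gene.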

Other observations

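Spp1, which encodes the secreted phosphoprotein osteopontin and was picked after its values were seen, was at 8802 CPM in Acta2-positive and 1055 CPM in Acta2-low fibroblasts, 8.35 times as high (8.13 to 8.57), in 154 and 330 barcodes. Its median over single barcodes was 2585 and 191 CPM. It was also at 6991 CPM in macrophage-gene and 5534 CPM in keratin-gene barcodes. Across the bands of Acta2 UMIs it was at 719, 2148, 8623, 4482 and 10588 CPM, which is not a steady order. The part of free RNA or of other cells in a droplet in these values was not tested.

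Granzyme genes, known from cytotoxic lymphocytes, appeared in a few Acta2-positive barcodes. Gzmd had 161 UMIs in 14 Acta2-positive barcodes and 2 UMIs in 2 Acta2-low ones, and Gzme had 208 UMIs in 25 and 10 UMIs in 8. Gzmc, named after its values were seen, had 91 UMIs in 23 and 20 UMIs in 11. These genes are near-identical neighbours of 1 family, so reads may be split among them and the single values are uncertain. In the Acta2-positive class 5 barcodes held 79.5% of the Gzmd and 74.0% of the Gzme UMIs, so the levels are those of a few droplets. In neutrophil-gene, macrophage-gene and keratin-gene barcodes Gzme was at 0.131, 0.268 and 0.333 CPM, against 49.7 CPM in Acta2-positive ones. Lymphocyte barcodes were not set apart for this comparison. The summed level of lymphocyte genes was 31.3 CPM in Acta2-positive and 30.8 CPM in Acta2-low barcodes. Mcpt8, a protease known from basophils, had 49 UMIs in 12 Acta2-positive barcodes and 2 UMIs in 2 Acta2-low ones, and 1 barcode held 32.7% of the 49.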
